A study of Homo sapiens with 8 samples.

Results

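The genes VEGFA, PGF, FLT1, ADM, EDN1, EFNA1, EFNA3, ANGPTL4 and STC2 encode secreted or membrane-bound factors of the blood vessel response to low oxygen, and HIF-1β binding around these 9 genes, of 20162 protein-coding genes in the annotation, is described here. A peak was assigned to a gene when it overlapped the gene body extended by 50 kb on each side, on GRCh37 (hg19). The genes were chosen by name, but with earlier results of these data known, so counts over them are descriptions without a test. HIF-1β binding was measured by chromatin immunoprecipitation and sequencing (ChIP-seq), in which an antibody pulls down the protein with the DNA bound to it. The cells were the established human cancer lines PC-3 (prostate), T47D (breast), A549 (lung) and HCT-116 (colorectal), each with 2 replicates kept at 0.5% oxygen for 16 h. No normoxic library and no input library was analysed here, so the values describe where binding was called in hypoxic cells and not how it changed with oxygen. No source used here says whether the replicates came from separate cultures, and p-values therefore measure the spread between these libraries, which may be technical.

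Hypoxia-inducible factor (HIF) is a dimer of an oxygen-labile α subunit and the stable subunit HIF-1β. The dimer binds DNA at the core sequence ACGTG or GCGTG. The antibody was against HIF-1β, so the peaks do not show which partner was bound with it. When oxygen falls, HIF raises the transcription of genes that recruit and remodel blood vessels, of which VEGFA, the main growth factor for endothelial cells, is the textbook example. Its relative PGF acts through the receptor FLT1, adrenomedullin (ADM) dilates vessels, endothelin-1 (EDN1) constricts them, and the ephrins EFNA1 and EFNA3 are membrane-anchored ligands of Eph receptors. ANGPTL4 inhibits lipoprotein lipase and affects vessel permeability, and STC2 is a secreted glycoprotein of the stanniocalcin family.

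The deposited lists held between 1042 peaks (PC-3 replicate 1) and 3790 peaks (HCT-116 replicate 2), 18645 in all, with no reads, so the depth behind them is unknown. PC-3 replicate 2 held 2891 peaks and HCT-116 replicate 3 held 1913, and these pairs were the most unequal in length. Each peak carried a score from the peak caller, with a lowest value close to 50 in every list. Scores were read as percentiles, that is, as the percentage of peaks in the same list that scored no higher, so that lists of different length could be set side by side. Joining every peak of the 8 lists with those it touched, by 1 bp or more, gave 8362 regions. A region or merged interval with a peak of both replicates of a line is called a site of that line, and there were 970 sites in PC-3, 2062 in T47D, 1041 in A549 and 1756 in HCT-116.

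Of the 9 genes, 5 had a site within the window in all 4 lines (ADM, EFNA1, EFNA3, ANGPTL4 and STC2), against 3.74% of all protein-coding genes. VEGFA had a site in T47D and HCT-116, and EDN1 in T47D and A549. PGF and FLT1 had a site in no line, as did 67.4% of protein-coding genes. Counted by line, 5 of the 9 genes had a site in PC-3 (10.1% of all protein-coding genes), 7 in T47D (22.0%), 6 in A549 (8.64%) and 6 in HCT-116 (19.7%). When PC-3 replicate 1, the shorter list, was left out, 8 genes had a peak in PC-3, with VEGFA, PGF and EDN1 added. A single peak was enough there, and the replicate 2 list held 2891 peaks against 970 sites of both replicates. The share of all protein-coding genes under this looser rule was not counted. EFNA1 was among the 5 genes through a region whose nearest start is that of EFNA3. With sites given to the nearest start alone, EFNA1 was counted in T47D and lost in the other 3 lines.

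The 9 windows held 95 peaks in 23 of the 8362 regions, and 17 of these regions held a site in at least 1 line. In the whole genome 3837 of the 8362 regions held a site, 232 of them in all 4 lines. Near the 9 genes a site was present in 1 line at 8 regions, in 2 lines at 3, in 3 lines at 2 and in all 4 lines at 4. The regions bound in every line were the STC2 promoter, the 3′ end of ADM, the region upstream of ANGPTL4 and the body of EFNA3. T47D had a site at 15 of the regions, HCT-116 at 9, and PC-3 and A549 at 6 each. T47D and HCT-116 also had the most sites in the whole genome, 2062 and 1756, against 970 in PC-3 and 1041 in A549. The nearest protein-coding start was that of a member at 16 of the 17 regions with a site, the exception being an intron of RAB11B, a small GTPase gene downstream of ANGPTL4. The farthest region with a site was centred 53403 bp from the start of its gene.

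**Figure D1:**
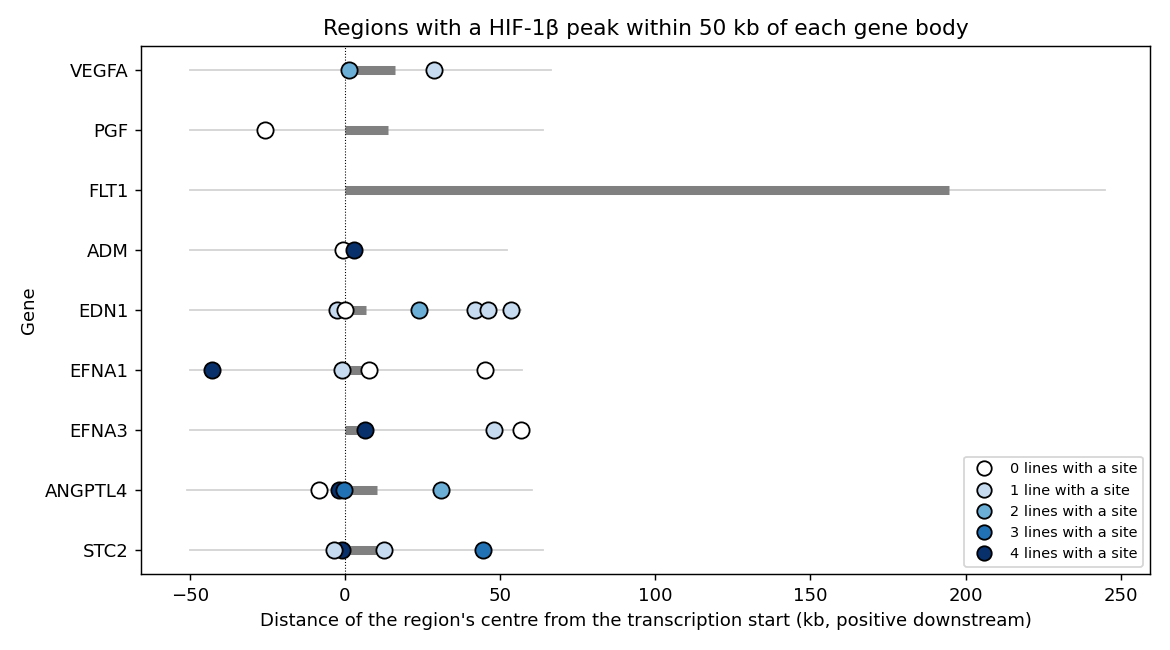
Distance in kb of the centre of every region with a HIF-1β peak (circles) from the transcription start of each of the 9 genes, with the gene body as a thick bar and the 50 kb window as a thin line. Darker circles had a site in more of the 4 lines. The 4-line regions lie close to STC2, ADM, ANGPTL4 and EFNA3, the FLT1 window is empty, and the EFNA1 and EFNA3 windows share 3 regions.

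The sequences at the leading regions show how the core sequence lies around the centre of each region. The lists give intervals without a summit, so the centre does not mark the point of binding. For each gene below, 200 bp around the centre of the interval common to the libraries with a peak are given from GRCh37 in the direction of transcription. Capitals mark ACGTG or GCGTG, which read CACGT or CACGC where the copy lies on the other strand. Copies were counted on both strands here and below, so a CACGTG, which holds ACGTG on each strand, is counted once for each. The first 4 are those of the regions bound in all 4 lines, followed by the strongest regions of VEGFA and EDN1.
STC2 promoter, chr5:172756132-172756331, minus strand: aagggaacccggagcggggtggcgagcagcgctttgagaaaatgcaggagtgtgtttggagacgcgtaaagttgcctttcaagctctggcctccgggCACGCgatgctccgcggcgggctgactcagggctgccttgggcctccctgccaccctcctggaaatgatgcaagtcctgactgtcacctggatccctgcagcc
ADM 3′ region, chr11:10329461-10329660, plus strand: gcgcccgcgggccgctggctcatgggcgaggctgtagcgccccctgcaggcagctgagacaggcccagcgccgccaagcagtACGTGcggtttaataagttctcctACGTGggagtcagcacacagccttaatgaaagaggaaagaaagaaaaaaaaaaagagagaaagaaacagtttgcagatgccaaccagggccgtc
ANGPTL4 upstream region, chr19:8426950-8427149, plus strand: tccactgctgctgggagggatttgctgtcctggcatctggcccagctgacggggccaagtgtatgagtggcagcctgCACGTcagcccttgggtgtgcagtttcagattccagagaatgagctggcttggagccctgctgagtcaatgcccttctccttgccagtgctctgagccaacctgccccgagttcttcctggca
EFNA3 gene body, chr1:155057559-155057758, plus strand: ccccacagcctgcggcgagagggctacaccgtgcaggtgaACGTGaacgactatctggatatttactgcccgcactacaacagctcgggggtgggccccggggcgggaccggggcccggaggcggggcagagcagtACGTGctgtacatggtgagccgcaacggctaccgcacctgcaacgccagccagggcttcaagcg
VEGFA start region, chr6:43739099-43739298, plus strand: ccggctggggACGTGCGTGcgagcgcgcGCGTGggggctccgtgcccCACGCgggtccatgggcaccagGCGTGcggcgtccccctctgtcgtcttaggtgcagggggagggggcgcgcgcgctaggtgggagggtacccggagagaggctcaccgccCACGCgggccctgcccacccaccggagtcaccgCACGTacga
EDN1 downstream region, chr6:12314298-12314497, plus strand: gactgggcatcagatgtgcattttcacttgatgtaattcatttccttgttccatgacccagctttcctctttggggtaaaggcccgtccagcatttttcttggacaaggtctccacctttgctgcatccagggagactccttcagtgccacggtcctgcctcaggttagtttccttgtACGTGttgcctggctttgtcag

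In these stretches a single GCGTG copy of STC2 lay at the centre itself, and at ADM 1 of 2 ACGTG copies lay 8 bp from it. At STC2 the common interval was centred at -815 bp from the start, whereas the peak centres of single libraries ran from -884 to -146 bp. The nearest copy was 21 bp from the centre at ANGPTL4, 29 bp at VEGFA, 38 bp at EFNA3 and 80 bp at EDN1. Among the 232 regions of the genome with a site in all 4 lines, 231 held either sequence in the interval common to their libraries, at a median distance of 37 bp from the centre. The VEGFA stretch differed from the others in holding 7 copies, of which 5 were GCGTG. The common interval around it, 1301 bp long, held 9 copies and had 73.7% GC. In the central 300 bp, 15 of the 17 regions with a site near the 9 genes held ACGTG or GCGTG (88.2%, 95% exact binomial interval 63.6 to 98.5%), against 3189 of 3837 regions with a site in the whole genome (83.1%, 81.9 to 84.3%). The interval of the 17 regions contains the genome-wide share. Windows of the same length 5 kb to either side of the sites held a copy in 32.3 to 33.5%, depending on the line. By line, the central 300 bp held a copy at 6 of 6 sites near these genes in PC-3, 11 of 15 in T47D, 6 of 6 in A549 and 9 of 9 in HCT-116. Over all sites the shares were 84.3% in PC-3, 75.5% in T47D, 82.4% in A549 and 84.2% in HCT-116.

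Among the ligands, VEGFA (chr6:43737921-43754224, plus strand) was bound around its start in T47D and HCT-116. The region, chr6:43736824-43740019, reached from upstream sequence into coding sequence and an intron, and the interval common to its 5 libraries was centred 1251 bp downstream of the start. In T47D the peak scored 376 in replicate 1 and 206 in replicate 2, the 93.9th and 83.2nd percentiles. In HCT-116 it scored 162 and 98.3, the 72.8th and 53.5th percentiles. A PC-3 replicate 2 peak scored 54.6, near the lowest value of its list, and neither PC-3 replicate 1 nor A549 had a peak. The T47D libraries were thus the highest, HCT-116 came next, and PC-3 and A549 lay below both without overlap. The test between lines gave an unadjusted p = 0.029 (exact permutation test, one-sided), and an adjusted p = 0.40 over all 8362 regions. With 8 libraries no region could reach an adjusted p under 0.05 in this test, as described below.

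Peaks of T47D replicate 1 and HCT-116 replicate 2 also covered the ACGTG copy farthest upstream of VEGFA, 974 bp before the start. Copies 509 bp and 311 bp before the start were covered by 3 libraries, the same 2 and T47D replicate 2. In HCT-116 replicate 2 a separate upstream peak scored 84.8, against 162 for the intronic peak. In the region over the EDN1 start, the only copy before the start lay 121 bp from it and was covered by PC-3 replicate 2 and HCT-116 replicate 2. These short stretches are shown because promoter peaks covered them in some libraries only, with the core sequence in capitals.
VEGFA upstream of the start, chr6:43736954-43736994, plus strand: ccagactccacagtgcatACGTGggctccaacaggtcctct
EDN1 upstream of the start, chr6:12290453-12290493, plus strand: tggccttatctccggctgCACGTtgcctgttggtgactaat

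A second VEGFA region, chr6:43766070-43767535, lay 28845 bp downstream of the start in intergenic sequence. It scored 293 in HCT-116 replicate 2 and 93.7 in replicate 3, the 86.7th and 50.7th percentiles, and 63.3 in PC-3 replicate 2. In HCT-116 replicate 2 it outscored the start region, whereas in replicate 3 the scores of the 2 regions lay close together. T47D and A549 had no peak there. The nearest VEGFA sites beyond the window were 101255 bp away in PC-3 and 101290 bp in A549, nearest to the start of MRPS18A, a mitochondrial ribosomal protein gene.

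PGF (chr14:75408537-75422329, minus strand) had a single peak in its window, in PC-3 replicate 2, at chr14:75447370-75448822. The peak lay 25796 bp upstream of the PGF start and nearer to that of EIF2B2, a translation initiation factor gene, and scored 171, the 78th percentile of the list. PC-3 replicate 1 and the 6 other libraries had none, so no site was counted. Sites in all 4 lines lay beyond the window, 85551 bp from PGF in PC-3, 85681 bp in A549, 95132 bp in T47D and 95203 bp in HCT-116. Their nearest start was that of MLH3, a mismatch repair gene. The MLH3 start was 94 bp away in T47D, 11 bp in HCT-116, 9663 bp in PC-3 and 9682 bp in A549. With a window of 100 kb PGF was counted in all 4 lines through these sites. The share of all protein-coding genes with that window was not counted.

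FLT1 (chr13:28874483-29069282, minus strand), the receptor that binds both VEGFA and PGF, had no peak in any of the 8 libraries over a window of 294800 bp, the widest of the 9. The nearest site was 849342 bp away in T47D, 1426759 bp in HCT-116, 2300677 bp in PC-3 and 7879602 bp in A549. The lists hold only peaks past the caller's limit, and weaker signal at FLT1 could not be seen in them.

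The vessel-dilating peptide gene ADM (chr11:10326620-10328944, plus strand) was bound at its 3′ end in every library. The region, chr11:10328482-10331573, was centred 2941 bp downstream of the start, just past the end of the gene. Its score was 505 in PC-3 replicate 1 and 1088 in replicate 2, 288 and 269 in T47D, 1623 and 1230 in A549, and 2314 and 1392 in HCT-116. It ranked 62nd and 59th in the PC-3 lists, 275th and 353rd in T47D, 23rd and 19th in A549, and 29th and 26th in HCT-116. The percentiles ran from 87.9 to 91.0 in T47D, 94.1 to 98.0 in PC-3 and 98.6 to 99.3 in A549 and HCT-116, so T47D lay below the other 3 lines without overlap. The unadjusted p was 0.019 and the adjusted p 0.40 (exact permutation test, one-sided). Without T47D replicate 2 the unadjusted p was 0.16, and it was between 0.067 and 0.086 without either A549 or either HCT-116 replicate (exact permutation test).

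At the ADM promoter itself a peak was called in HCT-116 replicate 2 alone, at chr11:10324997-10326963, with a score of 88.3 and a percentile of 45.2. This promoter stretch held 7 copies of the core sequence, none within its central 300 bp. The 2 copies at the centre of the 3′ region, shown above, were covered by all 8 libraries, and 11 copies lay in the interval common to those libraries. In a search of all regions for the most similar pattern of 8 percentiles, the nearest to the ADM 3′ region were regions on chromosomes 2 and 14 with no protein-coding start within 50 kb, at Euclidean distances of 5.38 and 9.29 percentile points.

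EDN1 (chr6:12290594-12297427, plus strand), which encodes the vasoconstrictor endothelin-1, had 6 regions, the most of the 9 genes, and 5 of them were sites in T47D. The leading region, chr6:12313160-12315363, lay 23804 bp downstream of the start. It scored 914 and 1057 in T47D, ranks 59 and 62, and 162 and 80.2 in A549, ranks 509 and 755. PC-3 replicate 2 scored 65.1, and PC-3 replicate 1 and both HCT-116 replicates had no peak. The T47D percentiles of 98.1 and 97.9 exceeded the A549 values of 71.3 and 40.6, and these exceeded the PC-3 and HCT-116 values, the highest of which was 27.5. The unadjusted p was 0.029 and the adjusted p 0.40 (exact permutation test, one-sided).

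A further EDN1 region, chr6:12335788-12337123, 45956 bp downstream of the start, was called in T47D alone, with scores of 526 and 644 and percentiles of 96.1 and 96.2. The regions centred 41840 bp and 53403 bp downstream were sites in T47D and were called in A549 replicate 2 but not in replicate 3. T47D scored 91.4 and 108 at the former and 186 and 104 at the latter, and A549 replicate 2 scored 63.6 and 81.0. The region centred 2570 bp upstream scored 115.8 and 78.4 in T47D, 54.1 in PC-3 replicate 1 and 52.2 in A549 replicate 2. The EDN1 promoter region, centred 95 bp upstream of the start, was called in PC-3 replicate 2 (score 84.3) and HCT-116 replicate 2 (score 61.5) and was a site in no line. T47D, with 5 sites in the window, had no peak at that promoter. A region called in both replicates of a single line cannot reach a p under 0.14 in this exact permutation test, so the regions seen in T47D only are given as values.

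**Figure D2:**
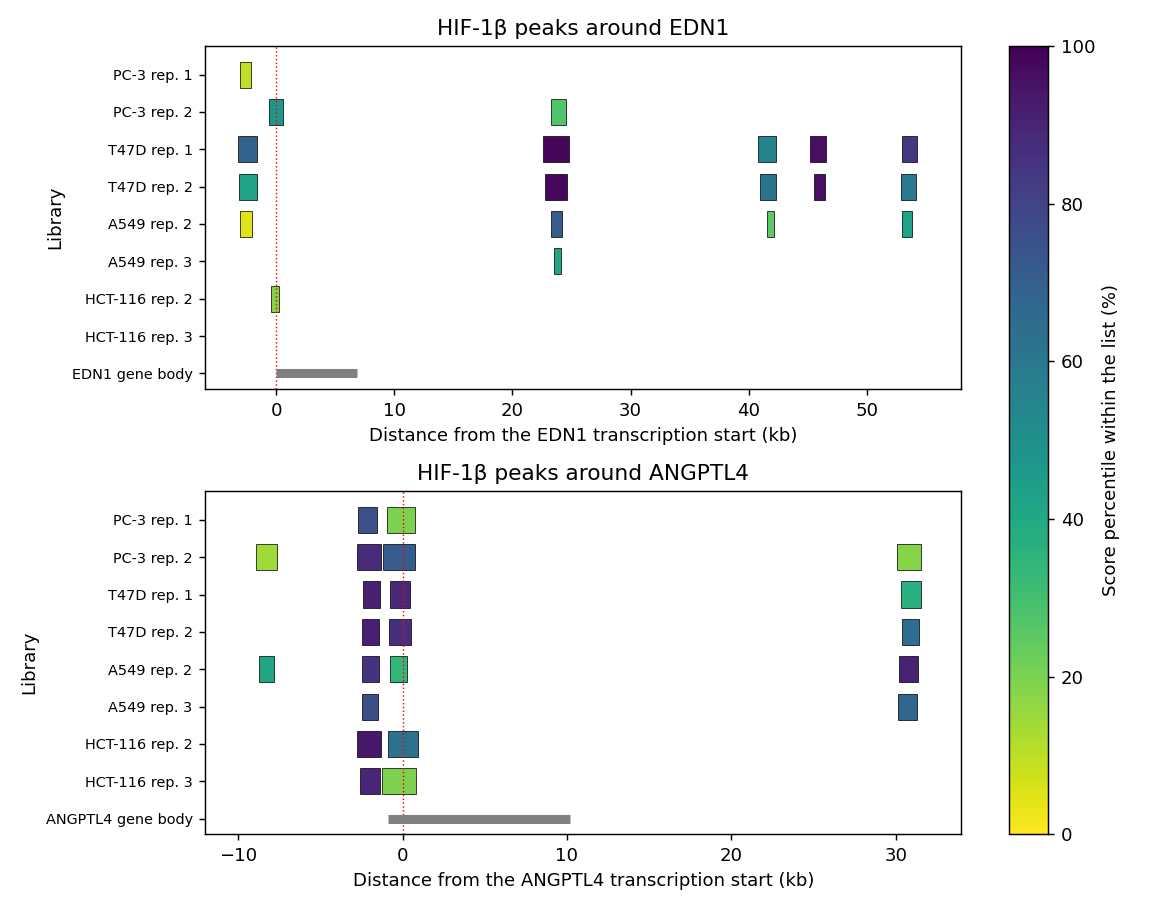
HIF-1β peaks of each of the 8 libraries around EDN1 (above) and ANGPTL4 (below), drawn to scale by distance in kb from the transcription start (dotted line), with the gene body as a grey bar and colour giving the score percentile within the list. EDN1 shows 5 paired T47D peaks, 4 peaks in A549 replicate 2 and 0 to 2 in each other library. The region about 2 kb upstream of ANGPTL4 has a peak in all 8 libraries.

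The ephrin genes EFNA3 (chr1:155051313-155060014) and EFNA1 (chr1:155100352-155107375), both on the plus strand, lie close enough that their windows shared 3 of the regions. The leading region, chr1:155050457-155059395, had its common interval in the coding exons and introns of EFNA3, centred 6346 bp downstream of the EFNA3 start and 42693 bp upstream of the EFNA1 start. Its score was 184 and 396 in PC-3, 251 and 314 in T47D, 224 and 110 in A549, and 748 and 505 in HCT-116. The percentiles were 79.9 and 92.3 in PC-3, 88.9 and 89.7 in T47D, 79.5 and 57.3 in A549, and 96.0 and 94.1 in HCT-116. HCT-116 was the highest and A549 the lowest, and the difference between lines did not pass the threshold (exact permutation test, one-sided, unadjusted p = 0.10). The region was 8939 bp wide because a weak T47D replicate 2 peak of 5962 bp with a score of 59.5 reached back over the EFNA3 start and touched the stronger peaks. The EFNA3 site counted at its promoter in T47D rests on that peak.

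At EFNA1 itself, the promoter region chr1:155096889-155100917 was called in T47D alone, with scores of 143 and 102 and percentiles of 76.1 and 58.4. Its common interval was 2619 bp long and held 22 copies of ACGTG or GCGTG, the most of the 23 regions. Another region, 7719 bp downstream of the EFNA1 start and next to the start of the sugar transporter gene SLC50A1, had a peak of PC-3 replicate 2 (56.2) and of HCT-116 replicate 2 (71.8). A peak of HCT-116 replicate 2 with a score of 75.0 lay 45233 bp downstream of the EFNA1 start and 195 bp from that of KRTCAP2. Neither was a site in any line.

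ANGPTL4 (chr19:8428173-8439254, plus strand), the lipoprotein lipase inhibitor, had neighbouring regions at and upstream of its start. The upstream region, chr19:8426267-8427755, was centred 1989 bp before the start and had a peak in all 8 libraries. The scores there were 163 and 285 in PC-3, 298 and 353 in T47D, 289 and 175 in A549, and 527 and 348 in HCT-116. The percentiles lay between 75.6 and 93.6, and their difference between lines did not pass the threshold (exact permutation test, one-sided, p = 0.20). The region over the start, chr19:8427781-8430009, centred 242 bp upstream, had percentiles of 88.3 and 86.3 in T47D, 19.6 and 70.9 in PC-3, 62.7 and 19.6 in HCT-116, and 33.9 in A549 replicate 2 only. T47D was the highest there, and the PC-3 and HCT-116 replicates were far apart. In every library the upstream region scored higher than the start region.

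A distant region in the ANGPTL4 window, chr19:8459102-8460585, lay in an intron of RAB11B, 30831 bp downstream of the ANGPTL4 start and 4626 bp from that of RAB11B. It was a site in A549, with scores of 398 and 141, and in T47D, with 70.5 and 117. PC-3 replicate 2 scored 59.1, and HCT-116 had no peak. A549 was the highest line, with percentiles of 90.4 and 67.6, and the test between lines gave an unadjusted p = 0.029 and an adjusted p = 0.40 (exact permutation test, one-sided). A peak 8284 bp upstream of the start was called in PC-3 replicate 2 (56.8) and A549 replicate 2 (78.4) and in neither partner.

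STC2 (chr5:172741726-172755450, minus strand) had the highest mean percentile of the 9 genes at its leading region. Its promoter region, chr5:172753727-172757597, overlapped the start and was centred 815 bp upstream of it. The score was 836 and 1860 in PC-3, 1688 and 1769 in T47D, 688 and 558 in A549, and 2798 and 1337 in HCT-116. The peak ranked 23rd and 22nd in PC-3, 21st and 24th in T47D, 82nd and 67th in A549, and 19th and 29th in HCT-116, so that A549 placed it lowest. The percentiles ran from 94.8 to 99.5 and their difference between lines did not pass the threshold (exact permutation test, one-sided, p = 0.10). Of the 232 regions with a site in all 4 lines, ordered by mean percentile, STC2 was 25th (mean 98.0), ADM 46th (95.8), ANGPTL4 93rd (86.4) and EFNA3 102nd (84.7). The regions most like that of STC2 over the 8 percentiles lay at PFKFB4 and P4HA1, at distances of 1.02 and 2 percentile points.

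STC2 had 3 other regions. That at chr5:172710134-172711588, 44409 bp downstream of the start, had percentiles of 39.7 and 41.3 in PC-3, 73.7 and 79.1 in T47D, and 61.9 and 42.4 in HCT-116, with no peak in A549. T47D was highest, then HCT-116, then PC-3, and no line overlapped another, giving the smallest p of the test (exact permutation test, one-sided, p = 0.0095, adjusted p = 0.40). With every list shortened to its highest-scoring peaks, as many as the shortest list holds, the p was 0.29 (exact permutation test). A region over the STC2 3′ UTR, 12648 bp downstream of the start, was called in T47D alone, with scores of 119 and 82.1. A region 3611 bp upstream was called in HCT-116 alone, with scores of 158 and 96.5. It held 8 copies of the core sequence in its central 300 bp, counted over both strands. Some of these 8 are the same CACGTG read on each strand, so the number of separate places is smaller.

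**Figure D3:**
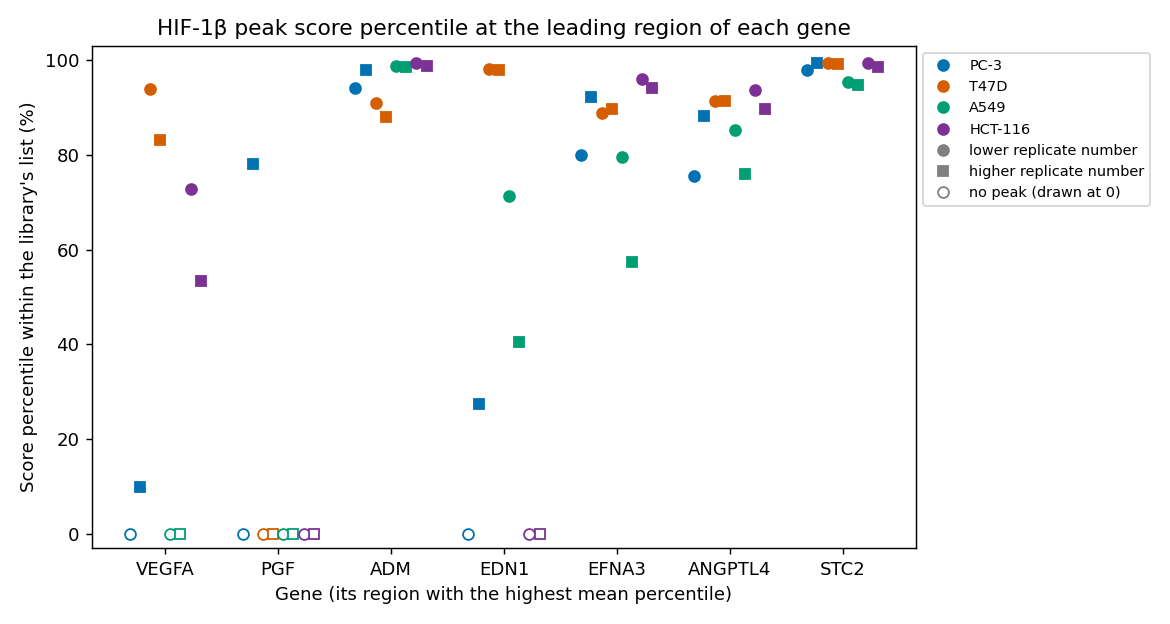
Score percentile within the list of each of the 8 libraries, at the region with the highest mean percentile of each gene, with circles for the lower and squares for the higher replicate number of each line and open symbols at 0 where no peak was called. STC2 lies between 94.8 and 99.5 and ADM between 87.9 and 99.3 in all libraries, whereas VEGFA and EDN1 lack a peak in 3 libraries each. EFNA1 shares the EFNA3 region, and FLT1 has none.

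The test between lines could be set against the whole series. Of the 23 regions, 5 had an unadjusted p under 0.05 (exact permutation test), against 5.23% of all 8362 regions. These were the VEGFA start region, the ADM 3′ region, the EDN1 region 23804 bp downstream, the RAB11B intron and the distant STC2 region. A region with peaks in fewer than 4 libraries cannot go below p = 0.14 in this exact permutation test. Among regions with peaks in at least 4, 5 of 10 near the 9 genes and 437 of 1452 in the whole series (30.1%) had p under 0.05, which is given as a description and was added after the values were seen. After adjustment 0 of the 8362 regions passed, and the smallest adjusted p was 0.40 (exact permutation test with Benjamini-Hochberg adjustment). The division of 8 libraries into pairs allows no p under 0.0095 in this test, and only those 1452 regions can go below 0.14. Adjusted over 8362 regions, no region could have passed, so the 0 says nothing about differences between lines. With libraries exchanged only within a replicate number, the ADM and STC2 regions alone had p under 0.05, both 0.042, the smallest that 24 divisions allow (exact permutation test). With HCT-116 replicate 3 left out, the STC2 region alone had p under 0.05, and with T47D replicate 1, A549 replicate 2 or HCT-116 replicate 2 left out 2 regions did (exact permutation test). The VEGFA region had p = 0.057 without T47D replicate 1 or HCT-116 replicate 3, and the EDN1 region p = 0.086 without either T47D replicate and 0.057 without A549 replicate 2 or either HCT-116 replicate (exact permutation test). The RAB11B region had p = 0.086 without either A549 replicate, 0.067 without either HCT-116 replicate, 0.057 without T47D replicate 1 and 0.14 with the lists shortened to equal length (exact permutation test).

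Sites are defined by overlap of the paired peaks, which limits how far apart their centres can lie. The median distance between the centres of the paired peaks was 138.5 bp in PC-3, 44 bp in T47D, 66 bp in A549 and 67 bp in HCT-116. The largest distances were 607 bp in PC-3 and 738 bp in HCT-116, both at the STC2 promoter, and 387 bp in T47D. In T47D every region with a peak of either replicate near the 9 genes had a peak of both. In PC-3 9 regions had a peak of a single replicate, 8 of them in replicate 2, and in A549 and HCT-116 5 and 4 regions did, all in replicate 2. In each of these 3 lines replicate 2 was the longer list. In the plot of paired percentiles, values near 100 have little room to differ, as at STC2 in PC-3 (97.9 and 99.3), where the scores were 836 and 1860, and at STC2 in HCT-116 (99.5 and 98.5), where they were 2798 and 1337. The ANGPTL4 start in PC-3 had percentiles of 19.6 and 70.9. The replicate with the longer list gave the higher percentile at all 6 sites in PC-3, all 6 in A549 and all 9 in HCT-116, and the part of list length in these values was not tested.

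**Figure D4:**
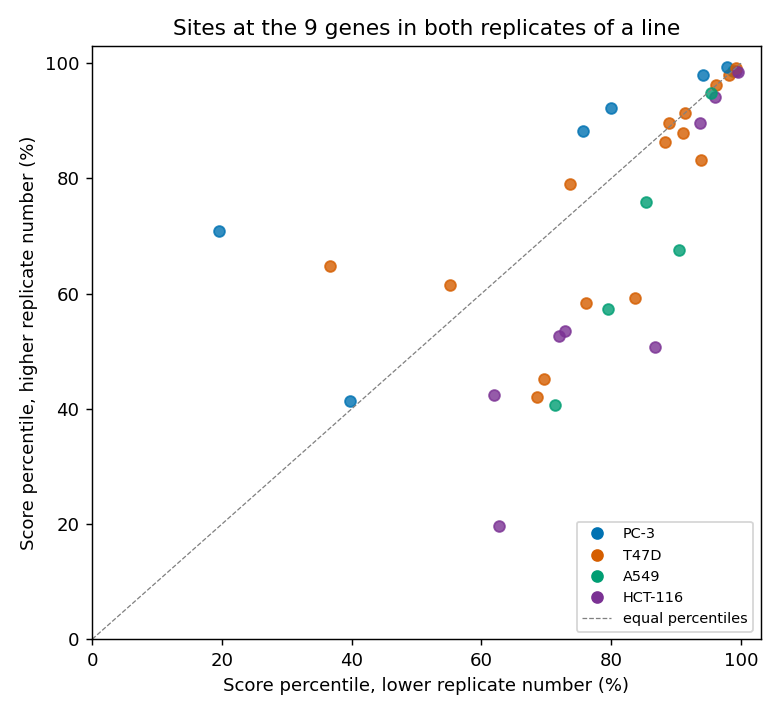
Score percentile of each site near the 9 genes in the lower-numbered (x axis) against the higher-numbered replicate (y axis) of its line, with the dashed line at equal percentiles. Points at the upper right lie near the line, where percentiles have little room to differ. All 6 PC-3 points lie above it, and all 6 A549 and 9 HCT-116 points lie below it.

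Where the promoter was set to 2 kb each way from the start, 7 of the 9 genes had a promoter site in at least 1 line, against 9.43% of all protein-coding genes. ANGPTL4 and STC2 had 1 in all 4 lines, ADM in 3, VEGFA in 2, and EDN1, EFNA1 and EFNA3 in T47D only. At ADM the count comes from the edge of the 3′ region, since the gene is 2325 bp long, and at EDN1 from the edge of the region centred 2570 bp upstream. With the lists shortened to equal length 4 genes were counted, and without T47D replicate 2 there were 6.

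A further 39 genes of the same pathways, listed with earlier results of these data known, were counted in the same window. Of these, 8 had a site in PC-3 (20.5%, against 10.1% of all protein-coding genes), 9 in T47D (23.1% against 22.0%), 7 in A549 (17.9% against 8.64%) and 9 in HCT-116 (23.1% against 19.7%). The shares in T47D and HCT-116 lay near the background, and 23 genes had no site in any line (59.0% against 67.4%). EDN2, PDGFB and EFNA4 had a site in all 4 lines (7.69% against 3.74%), EFNA4 through the EFNA3 region described above. VEGFB and RAMP3, which encodes a partner of the adrenomedullin receptor, had a site in 3 lines. ANGPTL6, ECE1 and TGFA were among the genes with a site in 2 lines. VEGFC, FLT4, NRP1, TIE1, EDNRA, STC1 and EPO had a site in 1 line. The gene's own start was nearest to the best site for 9 of these 16 genes. At RAMP3 the nearest start was that of TBRG4, at TIE1 CDC20, at ANGPTL6 PPAN-P2RY11, and at EDNRA TMEM184C.

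Of the other ligands of the VEGF family, VEGFC shared no line with VEGFA, whereas VEGFB had a site in both lines of VEGFA. VEGFC, the lymphatic growth factor, had sites in A549 alone, 1 of them centred 1534 bp upstream of its start with percentiles of 63.3 and 60.4. VEGFB had sites in PC-3, T47D and HCT-116, but the best was nearest to NUDT22. Of the 4 other receptors of the family, FLT4 had a T47D site nearest to SCGB3A1, NRP1 had 3 sites in A549 with a best percentile pair of 82.2 and 52.0, and the other two had none. In the endothelin group, EDN2 had a site 16666 bp upstream of its start with T47D percentiles of 90.3 and 93.6. Its receptor gene EDNRA had 1 of low rank in PC-3 (0.48 and 7.44), 97103 bp from the EDNRA start and nearest to TMEM184C. PDGFB, a growth factor for pericytes, had a site 7335 bp upstream of its start with percentiles of 89.4 and 94.5 in PC-3. EPO, the hormone of red cell production, had a T47D site 3278 bp downstream of its start with percentiles of 63.8 and 82.2, and STC1, the relative of STC2, had 1 in A549 with 4.47 and 42.8.

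By the likeness of the 8 percentiles, the regions closest to the other leading regions were named by their nearest start. These starts lay from 126 bp (R3HCC1L) to 39022 bp (CYP2A7) away, with TEX44 at 21153 bp, GRAMD1B at 24021 bp and KRT18 at 26170 bp. For ANGPTL4 the closest regions were at VDAC2 (percentile distance 5.13) and R3HCC1L (10.2). For EFNA3 they were at KDM4C (11.4) and TEX44 (12.6), and for VEGFA at CELSR3 (14.3) and ZCCHC3 (15.9). For EDN1 the closest, at KRT18 (34.9) and CYP2A7 (35.5), were farther than for any other gene. The single PC-3 peak of PGF matched other single peaks of that list, at UBASH3B and GRAMD1B.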

How the data were processed

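HIF-1β ChIP-seq of 4 lines was analysed from peak lists that the authors deposited, 1 per library, each with an interval and a score on GRCh37 (hg19). The submitters' processing notes name Trim Galore 0.3.3, BWA 0.7.5a-r405, SAMtools 0.1.19, bedtools 2.17.0, Picard 1.106 and MACS, without its version. The study's methods also require agreement with a second caller, T-PIC, and whether the deposited lists went through that step is not visible in them. The meaning of the score and the control for MACS are not given in the sources used here. Scores were therefore ranked within each list. A list reports peaks past a fixed limit, and its length can set which genes appear bound. The depth is unknown, and binomial intervals (95%, exact) cover counting error only.

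Peaks on the main chromosomes were used, which left out at most 4 of a list. Gene bodies and canonical starts came from GENCODE release 44 lifted to GRCh37. A region without a peak in a library was given the percentile 0. Lines were compared by the sum of squares between lines over all divisions of the 8 libraries into pairs, adjusted by the Benjamini-Hochberg method over all regions. Shares of genes and motifs are descriptions with no test. Named genes are the 9 members, the nearest start to each region, the 2 regions most like each leading region, and each pathway gene with a site, except 1 that is not reported here. Members and lists were chosen with earlier results of these data known. The overlaps and the test were tested on simulated data. Alternatives were other windows, overlaps, promoter widths and motif windows, list cuts, a peak of either replicate, log10 scores, a replicate block and each replicate left out. Python 3.11.15, NumPy 2.4.6, SciPy 1.17.1, pysam 0.24.0, samtools 1.23.1 and Matplotlib 3.10.9 were used.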

Additional observations from a re-analysis of the deposited data

How the results depend on the processing

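Under the alternatives, 81 recomputed counts and shares stayed close to their value and 9 moved. In PC-3, 8 genes were counted with a peak of either replicate, and 6 to 8 with a replicate left out, against 5. A single peak was enough in those looser counts, and the share of all protein-coding genes under them was not counted. VEGFA, PGF and EDN1 were added without replicate 1, and EDN1 without replicate 2. Genes with a promoter site fell from 7 to 4 with the lists shortened to equal length. With 25 kb windows or the nearest start only, EFNA1 was lost in PC-3, A549 and HCT-116. EDN1 was lost in A549 with the higher-scoring 50% of each list and gained in HCT-116 with a peak of either replicate. Correlations of the deviations of same-numbered libraries ran from -0.0295 to 0.0434. They cannot show whether such libraries formed a batch. The deviations of 2 replicates from their mean mirror each other, and most regions have no peak in most libraries. With the replicate block, 2 of the 23 regions had p under 0.05 and 0 of 8362 passed adjustment. No alternative gave an adjusted call, and in the main test none was possible. An unadjusted p under 0.05 was seen at 167 regions with the replicate block, 378 with shortened lists and 667 with log10 scores (exact permutation test). Of the recomputed p-values of the 5 named regions, 33 stayed under 0.05 and 22 did not. With 1 replicate left out, 1 to 5 of the 23 regions had p under 0.05. In those fits the lone library of a line is its own group, without a spread of its own. The lists hold no reads, so the depth that limits weaker sites cannot be given.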
